A study of Mus musculus with 16 samples.

Results

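Glucose transport and glycolysis were followed through 10 genes in ventricles of mice with or without pressure overload and with or without the kinase inhibitor THZ1. The genes were Slc2a1 and Slc2a4 (glucose transporters), Hk1 and Hk2 (hexokinases), Pfkm and Pfkp (phosphofructokinases), Eno1 and Eno3 (enolases) and Ldha and Ldhb (lactate dehydrogenases). They were taken by name, as the rows whose gene identifier carries one of these mouse symbols, and made up 10 of the 22372 genes in the table. Each symbol had 1 row, and all 10 genes were among the 13331 that passed a filter of at least 10 normalized counts in at least 4 libraries.

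Glucose enters heart cells through carriers, is phosphorylated by hexokinase, is committed to glycolysis by phosphofructokinase, passes through enolase near the end of the pathway, and can be reduced to lactate by lactate dehydrogenase. At each of these steps the mouse genome holds a form that striated or adult heart muscle uses most and a form found in most other cell types and in the fetal heart. The adult heart draws most of its energy from fatty acids, and a heart under long pressure overload is known to rely more on glucose.

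The RNA came from ventricle tissue of male C57BL/6J mice that were 10 to 12 weeks old at the start and carried no engineered allele. Transverse aortic constriction (TAC) narrows the aortic arch with a suture, so that the left ventricle pumps against a raised pressure, and the sham operation was the same without the suture. THZ1, a covalent inhibitor of Cdk7, Cdk12 and Cdk13, kinases of the transcription machinery, was injected into the peritoneum at 10 mg/kg, with 2 injections on each day of the period between postoperative days 1 and 60. The 4 groups were Sham-Veh (sham and vehicle), Sham-THZ1, TAC-Veh and TAC-THZ1, with 4 libraries each. THZ1 reached the whole animal, so it was not limited to one cell type, and each library mixed all cells of a ventricle piece.

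Libraries held 21.4 to 35.8 M (mega) reads in the genes of the table (median 28.2 M), of which 33.2% to 44.7% came from mitochondrial genes. The deposited values are normalized counts, which are read counts divided by a size factor for each library. All 8 cardiomyocyte markers were present, whereas 3 adipocyte markers summed to at most 19.5 normalized counts and 5 skeletal muscle markers to at most 44.7, so the muscle forms named below were read in heart tissue with little skeletal muscle RNA. Summed cardiomyocyte markers ran from 1480550 to 1565290 in Sham-Veh, from 810919 to 1169300 in TAC-Veh and from 1319940 to 1616280 in TAC-THZ1. Summed fibroblast markers, 6 genes, ran from 21228 to 23469, from 41048 to 59915 and from 24491 to 35878 in the same groups. In bulk tissue, fewer cells of a type and less RNA per cell cannot be told apart.

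Adult hearts without constriction used the muscle forms by a wide margin at the enolase and phosphofructokinase steps. Levels of different genes are compared here as normalized counts per kb of exon. In Sham-Veh the order ran from Ldhb (18732 ± 392 per kb, SD, n = 4) through Eno3 (15481 ± 461) and Pfkm (8538 ± 256) to Slc2a4 (3381 ± 190) and Ldha (3172 ± 74.7), and the values of the last pair overlapped. Below them came Hk2 (1427 ± 78.6), Hk1 (489 ± 30.8), Eno1 (208 ± 6.85), Slc2a1 (144 ± 19.4) and Pfkp (122 ± 11), and again the values of the last pair overlapped. Sham-THZ1 had the same order with the same overlaps. In TAC-Veh, Ldha stood above Slc2a4 without overlap, and Pfkp had moved from last to above Eno1 and Slc2a1, although the values of these 3 genes overlapped. In TAC-THZ1, Ldha and Slc2a4 overlapped again, and Pfkp overlapped with both Eno1 and Slc2a1, while all Eno1 values lay above those of Slc2a1. Exon length here is that of all annotated exons joined, so a gene with long, little used exons reads low per kb.

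Between TAC-Veh and Sham-Veh, which asks what pressure overload did under vehicle, the form with the higher level in Sham-Veh fell in all 5 pairs. The other form of the pair rose in 3 of them. Slc2a1, Pfkp and Eno1 were called higher, and Slc2a4, Hk2, Pfkm, Eno3 and Ldhb were called lower, while Hk1 and Ldha were not called. A gene was called at an adjusted p under 0.05 by limma, with adjustment over all 13331 genes. This gave 3 of 10 members higher, where 21.4% of all genes tested were higher, and 5 of 10 lower, where 23.6% were lower. In all, 8 of 10 members were called, against 45% of the genes tested. The values of the groups did not overlap for these 8 members, against 18.2% of all genes with every TAC-Veh value higher and 19.1% with every one lower. Scaling by the total outside mitochondrial genes moved the share of higher genes among all calls from 47.6% to 59.7% and kept the direction of each of the 10 members.

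**Figure D1:**
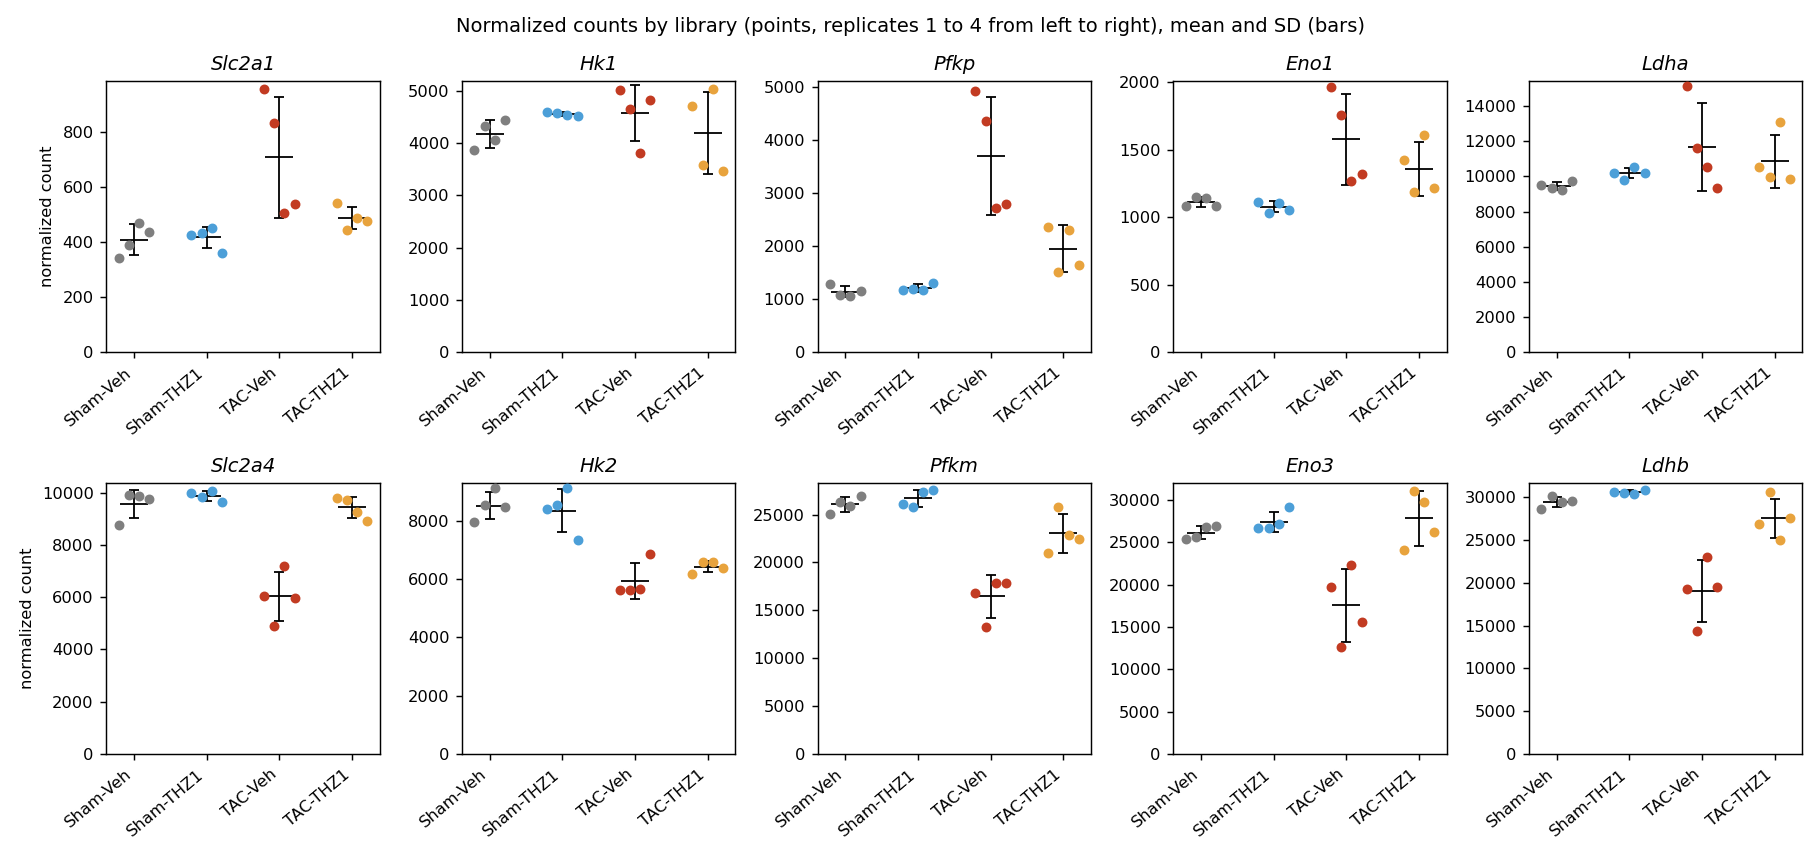
Normalized counts of the 10 genes in each library, with 1 panel per gene, the axis starting at 0, points for replicates 1 to 4 from left to right and bars for the mean and SD of each group. Pfkp ran from 1056 to 1286 in Sham-Veh and from 2726 to 4913 in TAC-Veh, and Slc2a4, Pfkm, Eno3 and Ldhb were lower in every TAC-Veh library than in any library of the other 3 groups.

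Slc2a1 encodes GLUT1, the carrier that supplies most cells with glucose independently of insulin. The gene lies at chr4:118781316-118809935 on NCBIM37 (mm9), the build of the expression data, as do the positions below. Its normalized counts were 343, 391, 470 and 435 in Sham-Veh and 955, 834, 506 and 539 in TAC-Veh, and 542, 446, 488 and 478 in TAC-THZ1. Every TAC-Veh library was above every Sham-Veh library, with replicates 1 and 2 well above replicates 3 and 4. The rise with TAC was 1.68-fold (log2 fold change 0.75, SE 0.17, adjusted p = 0.00173 by limma). Without TAC-Veh replicates 1 and 2, left out after the data had been seen, it was 0.36 with an adjusted p of 0.0311.

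With THZ1 in constricted hearts, Slc2a1 was called lower by 0.49 on the log2 scale, with 3 of the 4 TAC-THZ1 values below the lowest TAC-Veh value and the other within the range of that group. The adjusted p was 0.0362 by limma, and the call was lost without TAC-Veh replicate 1 (0.105) or 2 (0.121), without TAC-THZ1 replicate 2 (0.0938), 3 (0.0610) or 4 (0.0688), in a fit of the groups compared alone (0.127) and with array weights (0.137). Without both TAC-Veh replicates 1 and 2 the difference was -0.10 with an adjusted p of 0.604. Erythroid cells and endothelial cells also use GLUT1. Erythroid markers summed to 5285 to 5758 in Sham-Veh, 6442 to 11433 in TAC-Veh and 5894 to 25963 in TAC-THZ1, with none of the 5 called in either comparison. The 6 endothelial markers summed to 33685 to 37281 in Sham-Veh, to 50635 in TAC-Veh replicate 1 and 32808 to 37123 in the others of that group, and to 27047 to 34285 in TAC-THZ1. The part of either in the result was not tested.

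Slc2a4 encodes GLUT4, the carrier that insulin and contraction bring to the surface of muscle and fat cells. Its position is chr11:69756045-69761690. It stood at 8777, 9926, 9854 and 9753 normalized counts in Sham-Veh, at 6042, 4914, 7191 and 5973 in TAC-Veh, and at 9787, 9729, 9271 and 8931 in TAC-THZ1. No TAC-Veh library reached the lowest library of the other groups. Slc2a4 fell 1.60-fold with TAC (log2 fold change -0.68, SE 0.09, adjusted p = 1.45e-05 by limma) and was 1.58-fold higher in TAC-THZ1 than in TAC-Veh (log2 fold change 0.66, SE 0.09, adjusted p = 1.07e-04 by limma). Fat cell markers were near 0 in every group, as given above.

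Hk1 encodes the hexokinase of most tissues, and Hk2 the form that insulin-sensitive muscle adds to it. They lie at chr10:61731603-61842656 and chr6:82675019-82724448. Hk1 ranged over 3858 to 4439 normalized counts for Sham-Veh, 3806 to 5006 for TAC-Veh and 3473 to 5021 for TAC-THZ1, and the groups overlapped. Its log2 fold change with TAC was 0.13 (95% confidence interval -0.11 to 0.36), and with THZ1 in TAC -0.13 (-0.36 to 0.10). Hk2 had 7964, 8524, 9111 and 8478 normalized counts in Sham-Veh, 5623, 5609, 5668 and 6847 in TAC-Veh, and 6177, 6583, 6577 and 6365 in TAC-THZ1.

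Every constricted heart had less Hk2 than every sham heart, whether or not THZ1 was given. Hk2 fell 1.44-fold with TAC (log2 fold change -0.52, SE 0.08, adjusted p = 5.22e-05 by limma), and TAC-THZ1 overlapped with TAC-Veh, with a log2 fold change of 0.12 (95% confidence interval -0.04 to 0.28). The difference of TAC-THZ1 from TAC-Veh passed the test when TAC-Veh replicate 4, the highest of its group, was left out (0.19, adjusted p = 0.0472 by limma).

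Phosphofructokinase held the largest change of the 10 genes. Pfkp encodes the platelet form, found in many tissues outside muscle, and Pfkm the muscle form. Their positions are chr13:6579014-6648023 and chr15:97923020-97962878. Pfkp had 1286, 1079, 1056 and 1148 normalized counts in Sham-Veh, 4913, 4360, 2726 and 2801 in TAC-Veh, and 2365, 1510, 2304 and 1637 in TAC-THZ1. The 3 groups did not overlap, and within TAC-Veh replicates 1 and 2 were again the highest. Pfkp rose 3.14-fold with TAC (log2 fold change 1.65, SE 0.18, adjusted p = 2.97e-06 by limma), and was 1.87-fold lower in TAC-THZ1 than in TAC-Veh (log2 fold change -0.90, SE 0.18, adjusted p = 0.00158 by limma). Without TAC-Veh replicates 1 and 2 these were 1.28 (adjusted p = 1.16e-05 by limma) and -0.53 (0.0229). The fold thresholds that the study set beside the adjusted p, a log2 fold change of 1 for TAC and -0.89 for THZ1, were passed by Pfkp and by no other member, where 4.64% of all genes tested passed the first upward and 3.62% the second downward. No member passed the first downward or the second upward, where 3.37% and 1.85% of all genes did.

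Pfkm had 25059, 26334, 25890 and 26910 normalized counts in Sham-Veh, 16826, 13213, 17863 and 17889 in TAC-Veh, and 20971, 25798, 22905 and 22423 in TAC-THZ1. Each TAC-Veh value was lower than any in the other groups, and 3 of the 4 TAC-THZ1 values were lower than any in Sham-Veh. It fell 1.60-fold with TAC (log2 fold change -0.67, SE 0.09, adjusted p = 2.54e-05 by limma) and was 1.41-fold higher in TAC-THZ1 than in TAC-Veh (log2 fold change 0.49, SE 0.09, adjusted p = 0.00111 by limma).

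Eno1 encodes the enolase of most cells and Eno3 the muscle enolase. They are found at chr4:149610830-149622988 and chr11:70470704-70476015. Eno1 had 1086, 1152, 1145 and 1083 normalized counts in Sham-Veh, 1962, 1755, 1267 and 1321 in TAC-Veh, and 1425, 1188, 1613 and 1215 in TAC-THZ1. All TAC-Veh values were above all Sham-Veh values, and those of TAC-THZ1 fell within and below the range of TAC-Veh. The rise with TAC was 1.39-fold (log2 fold change 0.47, SE 0.12, adjusted p = 0.00466 by limma), and without TAC-Veh replicates 1 and 2 it was 0.21 and no longer called (0.109). With THZ1 in TAC the log2 fold change of Eno1 was -0.20 (95% confidence interval -0.45 to 0.06) and was not called.

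Eno3 had 25362, 25597, 26754 and 26876 normalized counts in Sham-Veh, 19751, 12642, 22270 and 15580 in TAC-Veh, and 24114, 31102, 29782 and 26254 in TAC-THZ1. The TAC-Veh values spread widely, with a coefficient of variation of 24.4% against 2.98% in Sham-Veh, yet all lay below the other groups. Eno3 fell 1.52-fold with TAC (log2 fold change -0.61, SE 0.13, adjusted p = 0.00152 by limma) and was 1.61-fold higher in TAC-THZ1 than in TAC-Veh (log2 fold change 0.69, SE 0.13, adjusted p = 0.00147 by limma).

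Ldha encodes the lactate dehydrogenase subunit M, typical of tissues that make lactate, and Ldhb the subunit H, typical of the adult heart. These genes lie at chr7:54096845-54110997 and chr6:142438769-142456477. Ldha had 9521, 9370, 9212 and 9734 normalized counts in Sham-Veh, 15128, 11641, 10524 and 9319 in TAC-Veh, and 10559, 9973, 13086 and 9872 in TAC-THZ1. Replicate 1 of TAC-Veh was the highest of all libraries, while replicate 4 lay within the Sham-Veh range. The log2 fold change with TAC was 0.28 (SE 0.12, adjusted p = 0.0610 by limma). It was called without TAC-Veh replicate 3 (0.32, adjusted p = 0.0492) or 4 (0.38, 0.00956), under 3 other scalings and in both count models (adjusted p 0.0171 to 0.0466). With THZ1 in TAC it was -0.09, and it became 0.05 without TAC-Veh replicate 1 and 0.13 without replicates 1 and 2, none of them called.

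Ldhb had 28614, 30107, 29377 and 29540 normalized counts in Sham-Veh, 19296, 14344, 23033 and 19447 in TAC-Veh, and 26825, 30534, 25024 and 27589 in TAC-THZ1. Every TAC-Veh value was below every value of the other groups. The fall with TAC was 1.57-fold (log2 fold change -0.65, SE 0.11, adjusted p = 1.52e-04 by limma), and TAC-THZ1 was 1.46-fold above TAC-Veh (log2 fold change 0.55, SE 0.11, adjusted p = 0.00159 by limma). The lowest Slc2a4, Pfkm, Eno3 and Ldhb values all came from TAC-Veh replicate 2, which also had the lowest summed cardiomyocyte markers (810919) and the highest summed fibroblast markers (59915), and the part of these markers was not tested.

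TAC-THZ1 against TAC-Veh, which asks what THZ1 did under pressure overload, had 4 of 10 members called higher, where 15.1% of all genes tested were higher, and 2 of 10 lower, where 14.2% were lower, so that 6 of 10 were called against 29.4%. Those higher were Slc2a4, Pfkm, Eno3 and Ldhb, and those lower were Slc2a1 and Pfkp. Groups did not overlap for the 4 members that were higher (9.53% of all genes) and, of those lower, for Pfkp (10.5%). Both comparisons use the same TAC-Veh libraries, so opposite signs in them are not independent. Scaling by the total outside mitochondrial genes moved the share of higher genes among all calls from 51.5% to 37.4% and kept the calls of these 6 members. Of 8 cardiomyocyte markers, 4 were called lower with TAC (50%, against 23.6% of all genes) and 5 higher with THZ1 in TAC (62.5%, against 15.1%), while Mb (0.03 and 0.20) and Actn2 (-0.04 and 0.11) were called in neither. Of 6 fibroblast markers, 4 were called higher with TAC and 4 lower with THZ1 (66.7% each, against 21.4% and 14.2%). The part of cell composition in these differences was not tested.

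**Figure D2:**
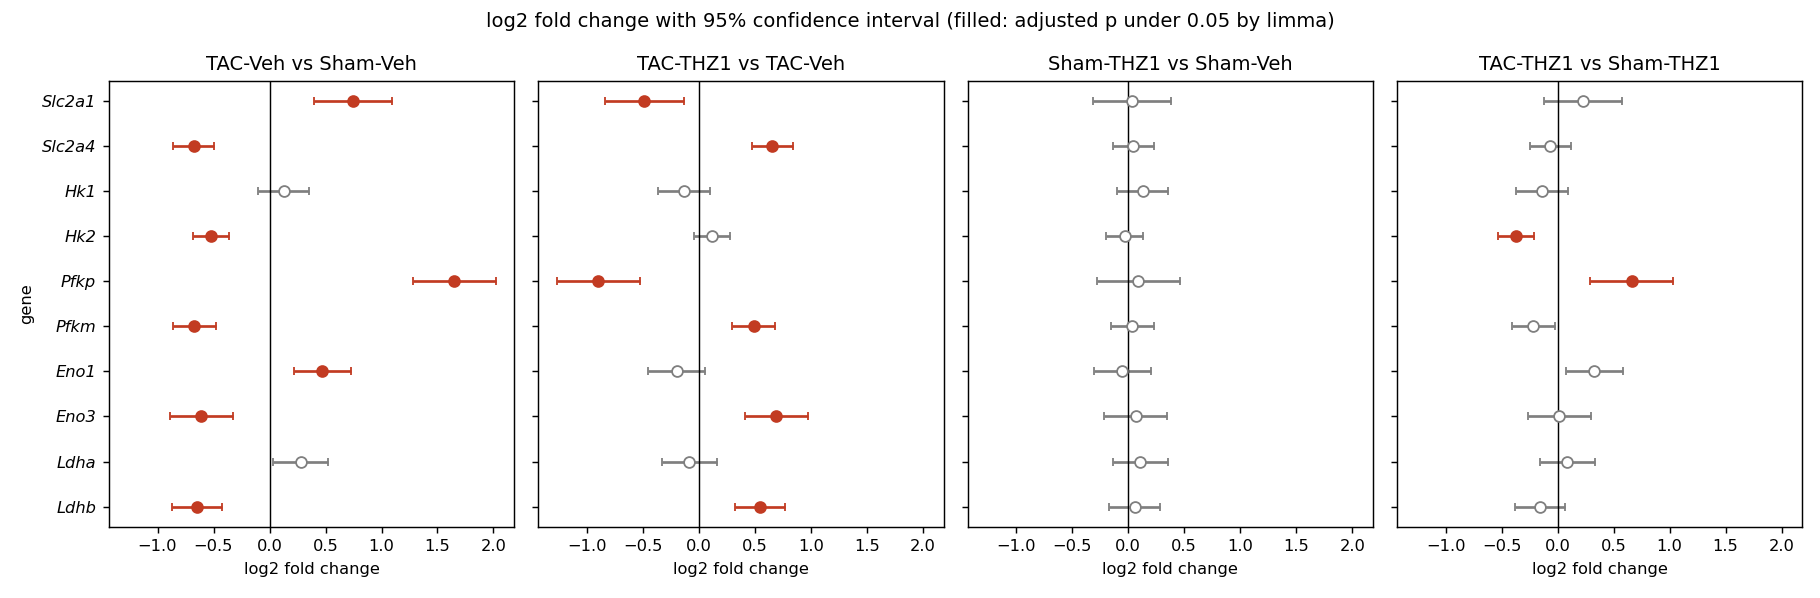
The log2 fold change of each of the 10 genes with its 95% confidence interval in 4 comparisons, with filled points for an adjusted p under 0.05 by limma. Under TAC 8 of 10 genes were called and with THZ1 in TAC 6 of 10, whereas with THZ1 in sham hearts none was and all 10 intervals included 0.

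In sham hearts THZ1 left the 10 genes without a call. Against a background of 0.0225% of all genes called higher, 0.045% called lower and 0.0675% in either direction, 0 of 10 members were called by limma, 0 had an unadjusted p under 0.05, and edgeR and DESeq2 called none. Log2 fold changes ran from -0.05 for Eno1 to 0.13 for Hk1, and the widest 95% confidence interval, that of Pfkp, was -0.28 to 0.46. Hk1, Ldha and Ldhb were higher in every Sham-THZ1 library than in any Sham-Veh library, where 6.29% of all genes were, and no member was lower in every one, where 5.05% were. For Ldha these values were 10176, 9826, 10545 and 10178 against 9212 to 9734, a log2 fold change of 0.11 that limma did not call (adjusted p = 0.945).

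The effect of THZ1 in constricted hearts minus its effect in sham hearts was called for 5 of 10 members. Slc2a4 (0.61), Pfkm (0.46), Eno3 (0.62) and Ldhb (0.49) had a positive difference on the log2 scale, 4 of 10 where 4.4% of all genes did, and Pfkp (-0.99) a negative one, 1 of 10 where 5.62% did. The adjusted p by limma was 0.00759 for Slc2a4, 0.0220 for Pfkp, 0.0351 for Pfkm, 0.0454 for Eno3 and 0.0487 for Ldhb. The call for Slc2a4 held in each library left out in turn and in the other settings tried. Those for Pfkm, Eno3 and Ldhb were lost without a filter on low values (0.0545, 0.0658 and 0.0736) and in 8, 13 and 11 of the 16 fits that left out 1 library. Pfkp lost its call without TAC-THZ1 replicate 2 (0.0505). Without TAC-Veh replicates 1 and 2 together, Slc2a4 was called (0.48, adjusted p = 0.0104) and the other 4 members were not, with adjusted p from 0.0633 to 0.0882 by limma. Slc2a1 had a difference of -0.52 (95% confidence interval -1.01 to -0.02) with an adjusted p of 0.166, and was called without TAC-Veh replicate 3 (-0.66, adjusted p = 0.0425).

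Under THZ1, 2 of the 10 genes were called between constricted and sham hearts, near the share of all genes tested (24.2%). In TAC-THZ1 against Sham-THZ1, Pfkp was higher, 1 of 10 members where 11.4% of all genes tested were, and Hk2 was lower, 1 of 10 where 12.8% were. Pfkp had 1169, 1199, 1167 and 1310 normalized counts in Sham-THZ1, and TAC-THZ1 was 1.58-fold above it (log2 fold change 0.66, SE 0.18, adjusted p = 0.0137 by limma). That call was lost without TAC-THZ1 replicate 1 (0.56, adjusted p = 0.0510). Hk2 had 8391, 8552, 9104 and 7324 normalized counts in Sham-THZ1, and TAC-THZ1 was 1.29-fold below it (log2 fold change -0.37, SE 0.08, adjusted p = 0.00368 by limma). Hk2 was the 1 member lower in every TAC-THZ1 library than in any Sham-THZ1 library, where 17.7% of all genes were.

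Of the members that were not called there, Eno1 was higher in every TAC-THZ1 library than in any Sham-THZ1 library (15.7% of all genes), with a log2 fold change of 0.33 and an adjusted p of 0.0589 by limma. It was called without TAC-THZ1 replicate 2 (0.39, adjusted p = 0.0383) and under 5 other settings (0.00992 to 0.0442). Slc2a4 had a difference of -0.07 (95% confidence interval -0.25 to 0.12) and Eno3 of 0.02 (-0.27 to 0.30), while Pfkm (-0.22) and Ldhb (-0.16) were not called. The call for Pfkm passed without TAC-THZ1 replicate 2 (-0.27, adjusted p = 0.0449), in a fit of the groups compared alone (0.0341) and with array weights (0.0159). Within TAC-THZ1, replicates 1 and 3 had more Hk1 (4713 and 5021 against 3572 and 3473), Pfkp (2365 and 2304 against 1510 and 1637) and Eno1 (1425 and 1613 against 1188 and 1215) than replicates 2 and 4. The same 2 libraries had the highest summed erythroid markers (25963 and 14392) and neutrophil markers (6374 and 2658), and whether these markers have a part in it was not tested.

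Because both genes of a pair are read in the same library, the share of each in the pair does not depend on how libraries were scaled. It is given per kb of exon and as a description, without a test. Of the Slc2a1 and Slc2a4 signal, Slc2a1 made up 4.07% ± 0.39 (SD, n = 4) under Sham-Veh, 10.7% ± 3.89 under TAC-Veh and 4.89% ± 0.38 under TAC-THZ1. The Pfkp share of the Pfkp and Pfkm signal was 1.41% ± 0.16, 6.98% ± 2.57 and 2.72% ± 0.76 in these groups. The Eno1 share of the Eno1 and Eno3 signal was 1.32% ± 0.06, 2.89% ± 1.01 and 1.53% ± 0.28. In the TAC-Veh library where it was highest, the Pfkp share was 9.68% and the Eno1 share 4.18%. The muscle form thus remained the main one of these pairs on this scale. Pfkl, another phosphofructokinase gene and outside the 10, is not part of the pair. It ran from 2643 to 2756 normalized counts in Sham-Veh and from 2644 to 3731 in TAC-Veh. The Eno1 share may read low. Its joined exon length was 5379 bases against 1689 for Eno3, and reads of Eno1 that align in several places may be missing, as said below.

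The hexokinase and lactate dehydrogenase pairs were less one-sided. The Hk1 share was 25.5% ± 1.32 in Sham-Veh, 35.0% ± 3.03 in TAC-Veh and 31.2% ± 4.18 in TAC-THZ1, and the Ldha share 14.5% ± 0.42, 24.7% ± 5.68 and 17.3% ± 3.02. In all 5 pairs every TAC-Veh library had a higher share of the first form than any Sham-Veh library, with differences in the log2 ratio of 1.43 for Slc2a1 to Slc2a4, 0.65 for Hk1 to Hk2, 2.32 for Pfkp to Pfkm, 1.08 for Eno1 to Eno3 and 0.93 for Ldha to Ldhb. From TAC-Veh to TAC-THZ1 the ratio was lower without overlap for Slc2a1 to Slc2a4 (-1.14) and Pfkp to Pfkm (-1.39), whereas groups overlapped for Hk1 to Hk2 (-0.25), Eno1 to Eno3 (-0.89) and Ldha to Ldhb (-0.63).

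**Figure D3:**
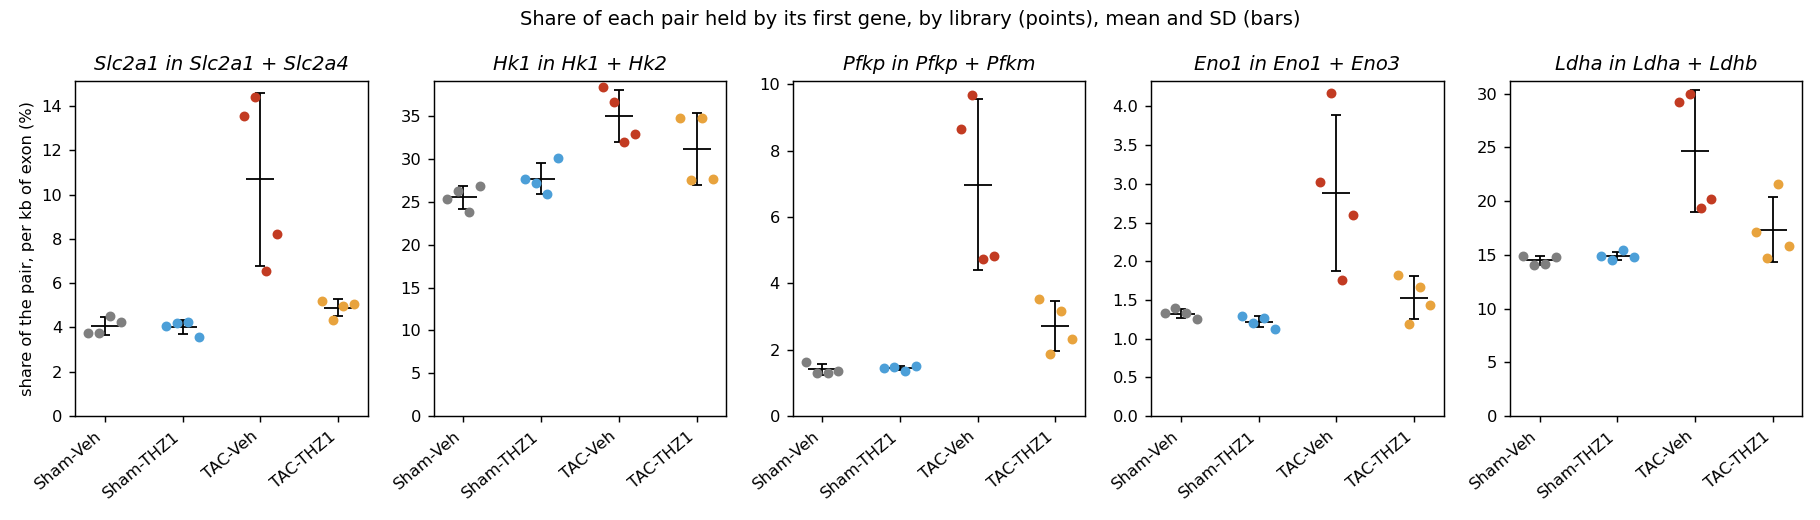
Share of each pair of genes held by its first member, in percent of the signal per kb of exon, by library (points for replicates 1 to 4 from left to right) with the mean and SD of each group (bars). All 5 shares were higher in every TAC-Veh library than in any Sham-Veh library, and the Pfkp share went from 1.31% to 1.64% in Sham-Veh to 4.72% to 9.68% in TAC-Veh.

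Summed over both genes of a pair, the signal per kb was lower in TAC-Veh for all 5 pairs. The name of a step stands for its pair here, without other genes of the step such as Pfkl. Enolase had 15688 ± 461 (SD, n = 4) normalized counts per kb in Sham-Veh, 10690 ± 2524 in TAC-Veh and 16720 ± 1896 in TAC-THZ1. Phosphofructokinase had 8659 ± 250 (SD, n = 4), 5785 ± 662 and 7754 ± 630, and lactate dehydrogenase 21904 ± 387, 16029 ± 2287 and 21158 ± 1114. The glucose carriers had 3524 ± 205, 2377 ± 290 and 3500 ± 147 normalized counts per kb, and hexokinase 1916 ± 91.7, 1530 ± 133 and 1568 ± 93.9. Hexokinase was thus the pair for which the summed signal of TAC-THZ1 lay within the range of TAC-Veh, 1396 to 1712. It also lay below the lowest Sham-Veh value of 1786.

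Start sites of these genes were searched for the letters ACGTG and GCGTG, the core that hypoxia-inducible factors bind, and CACGTG, the E-box read by Myc and ChREBP, which contains ACGTG on both strands. RefSeq windows of 250 bases before a start site on GRCm38.p6, another build than that of the expression data, were matched for 9 of the 10 genes and numbered 16. ACGTG or GCGTG stood on either strand in 14 of the 16, against 38.6% of 32851 windows of all genes, and CACGTG in 2 (1 each of Pfkm and Ldha), against 6.02%. The member windows were rich in G and C (median 58.8% against 52.4%), and among windows of all genes at or above that median 62.5% held ACGTG or GCGTG. Windows of one gene can overlap, and a match describes letters only.

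Windows of genes with 1 start site are shown for Slc2a1 and Pfkp, which rose with TAC, and for Hk2 and Ldhb, which fell, each read along the gene with the motif letters on either strand in capitals. They lie at chr4:119108495-119108744 (plus strand), chr13:6648772-6649021 (minus), chr6:82774455-82774704 (minus) and chr6:142507958-142508207 (minus).
Slc2a1: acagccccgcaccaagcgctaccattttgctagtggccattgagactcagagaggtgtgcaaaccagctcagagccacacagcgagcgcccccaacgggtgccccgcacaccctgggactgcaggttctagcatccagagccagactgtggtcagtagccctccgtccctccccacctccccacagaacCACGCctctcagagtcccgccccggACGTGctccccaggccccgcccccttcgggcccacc
Pfkp: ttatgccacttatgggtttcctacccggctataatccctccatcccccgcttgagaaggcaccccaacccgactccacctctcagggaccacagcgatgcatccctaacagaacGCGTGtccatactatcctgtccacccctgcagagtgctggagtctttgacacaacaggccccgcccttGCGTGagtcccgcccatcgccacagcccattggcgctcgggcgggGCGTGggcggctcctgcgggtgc
Hk2: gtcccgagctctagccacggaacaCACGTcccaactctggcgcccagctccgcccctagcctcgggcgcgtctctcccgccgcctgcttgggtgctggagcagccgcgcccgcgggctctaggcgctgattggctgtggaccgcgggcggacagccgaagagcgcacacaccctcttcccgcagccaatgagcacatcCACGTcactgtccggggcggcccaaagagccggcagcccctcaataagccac
Ldhb: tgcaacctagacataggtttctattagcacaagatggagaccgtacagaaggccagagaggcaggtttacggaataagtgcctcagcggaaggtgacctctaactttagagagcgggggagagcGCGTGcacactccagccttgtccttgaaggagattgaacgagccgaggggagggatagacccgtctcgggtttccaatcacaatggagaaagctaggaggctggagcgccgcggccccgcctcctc
Pfkp held GCGTG at -136, -68 and -23 from the start site, Slc2a1 1 match of each motif at -61 and -36, Hk2 ACGTG at -226 and -52 and Ldhb GCGTG at -126.

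Among the other enzymes of glycolysis, several rose with TAC. The counts of the lists from here on stand against 21.4% of all genes tested that were higher and 23.6% that were lower with TAC, and 15.1% and 14.2% with THZ1 in TAC. Of 17 genes described from the glycolysis list 13 passed the filter, with 6 called higher with TAC (46.2%) and 2 higher with THZ1 in TAC (15.4%, near the share of all genes), and a median log2 fold change with TAC of 0.23 against -0.00302 over all genes. Gapdh, which makes the first high-energy intermediate, rose with TAC (log2 fold change 0.47, adjusted p = 6.98e-04 by limma) and was -0.03 with THZ1 in TAC. Tpi1 (0.28) and Gpi1 (0.23), which interconvert sugar phosphates, also rose with TAC, whereas Aldoa (0.17), the muscle aldolase, Pkm2 (-0.14), the pyruvate kinase gene, and Pgam2 (0.15), the muscle phosphoglycerate mutase, were not called. The 2 that were higher with THZ1 in TAC were Pgam2 (0.31) and Bpgm (0.51), which makes the red cell metabolite bisphosphoglycerate. Bpgm had 1148, 682, 1069 and 633 normalized counts in TAC-THZ1 against 516 to 653 in TAC-Veh, so it was highest in replicates 1 and 3, the libraries with the highest summed erythroid markers. Its call was lost without TAC-THZ1 replicate 1 (0.36, adjusted p = 0.0735 by limma) or 3 (0.40, 0.0689) and without TAC-Veh replicate 4 (0.43, 0.0553), and the part of the erythroid markers was not tested. Bpgm is outside the 6 genes with the highest mean and is named after its values were seen. The same holds for Pfkl above and for Slc2a6, Pfkfb1, Pfkfb4, Mlx, Pdk3, Gbe1, Gys1, G6pdx, Rpia and Gfpt1 below.

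Among 9 other glucose transporters 7 were tested, with 3 higher (42.9%) and 1 lower (14.3%) with TAC, and 2 higher and 2 lower (28.6% each) with THZ1 in TAC. Slc2a12, which encodes GLUT12, followed Slc2a4, at 212 normalized counts in Sham-Veh, 81.7 in TAC-Veh and 182 in TAC-THZ1 (log2 fold changes -1.39 and 1.17, adjusted p = 6.94e-07 and 3.48e-05 by limma). Slc2a10 (0.82 and -0.87) and Slc2a13 (1.35 and -1.24), a myo-inositol carrier, rose with TAC and fell with THZ1, and Slc2a6 (1.47) rose with TAC. Slc2a13 was near the filter of 10 normalized counts, with means of 15.4 in Sham-Veh, 41.7 in TAC-Veh and 16.1 in TAC-THZ1. Slc2a8, Slc2a3 and Slc2a9 were not called with TAC, and Slc2a8 was higher with THZ1 in TAC (0.27).

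Regulators of glucose uptake and glycolysis, 13 genes, had 1 higher (7.69%) and 7 lower (53.8%) with TAC, and 4 higher (30.8%) and 1 lower (7.69%) with THZ1 in TAC. Tbc1d4, which holds GLUT4 vesicles inside the cell until Akt phosphorylates it, had a log2 fold change with TAC of -1.22 (adjusted p = 9.00e-07 by limma), Akt2 of -0.47, Prkaa2 (a catalytic subunit of AMP-activated kinase) of -0.58 and Pfkfb2 of -0.40, all called. The gene that was higher was Pfkfb4 (0.36), which like Pfkfb2 and Pfkfb1 sets the level of the activator of phosphofructokinase. Tbc1d4 (0.51), Akt2 (0.36), Pfkfb1 (1.5) and Mlx (0.19) were higher with THZ1 in TAC. Pfkfb1 had 374, 560, 418 and 463 normalized counts in Sham-Veh, 57.6, 37.2, 105 and 63.0 in TAC-Veh, and 108, 350, 151 and 167 in TAC-THZ1, and these groups did not overlap. Its log2 fold change with TAC was -2.85 (adjusted p = 2.49e-06 by limma), and TAC-THZ1 was below Sham-THZ1 by a log2 fold change of -1.31 (adjusted p = 0.00600 by limma). Hif1a, the hypoxia-inducible factor, had 0.28 with TAC, not called (adjusted p = 0.0505 by limma), and was lower with THZ1 in TAC (-0.53, adjusted p = 0.00269 by limma).

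Of 6 genes of lactate and pyruvate transport, 1 rose (16.7%) and 3 fell (50%) with TAC, and 4 rose (66.7%) and 1 fell (16.7%) with THZ1 in TAC. Slc16a3, which encodes MCT4, the lactate exporter of glycolytic cells, had 31.8, 24.9, 26.5 and 24.1 normalized counts in Sham-Veh, 263, 176, 68.4 and 68.1 in TAC-Veh, and 78.6, 38.2, 82.2 and 41.6 in TAC-THZ1. TAC-Veh replicates 1 and 2 were the highest, as for Slc2a1 and Pfkp. Its log2 fold change was 2.14 with TAC (adjusted p = 1.82e-04 by limma) and -1.09 with THZ1 in TAC (0.0322). The call with THZ1 was lost without TAC-Veh replicate 1 (-0.72, adjusted p = 0.0933 by limma) or 2 (-0.91, 0.105) and without TAC-THZ1 replicate 2 (-0.90, 0.103) or 4 (-0.94, 0.0871). Slc16a1 (MCT1) and Brp44, a subunit of the mitochondrial pyruvate carrier, fell by 0.26 and 0.35 on the log2 scale with TAC and rose by 0.28 and 0.53 with THZ1 in TAC. Slc16a7 (MCT2), at 105 normalized counts in Sham-Veh, had -1.67 and 1.00, and Brp44l, the partner of Brp44, 0.11 (not called) and 0.37.

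Pyruvate dehydrogenase, which takes pyruvate into oxidation, had 7 of 12 genes lower (58.3%) and 1 higher (8.33%) with TAC, and 7 higher (58.3%) and 1 lower (8.33%) with THZ1 in TAC. Pdha1 (-0.47), Dlat (-0.44) and Dld (-0.49), subunits of the complex, and Pdk2 (-0.78), a kinase that inhibits it, fell with TAC, and all 4 rose with THZ1 in TAC (0.30, 0.39, 0.44 and 0.56). The gene that rose with TAC was Pdk3 (0.90). Pdk4, another of these kinases, was not called with TAC (0.46, adjusted p = 0.454 by limma) and was lower with THZ1 in TAC (-1.40, adjusted p = 0.0362 by limma). It had 35683 normalized counts in TAC-Veh replicate 1 and 6821 to 9245 in the other 3, and without that library the difference was -0.84 and not called (0.0984). The call was also lost without TAC-THZ1 replicate 1 (0.0737), 3 (0.101) or 4 (0.0655).

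Of 11 glycogen genes, 4 were higher (36.4%) and 5 lower (45.5%) with TAC, and 4 higher (36.4%) and 2 lower (18.2%) with THZ1 in TAC. Pygm, the muscle phosphorylase that breaks glycogen down (-0.65), and Ppp1r3a, a muscle subunit that directs a phosphatase to glycogen (-0.80), fell with TAC. Ugp2 (0.76), Gyg (0.34), Gbe1 (0.25) and Ppp1r3c (0.97), which serve glycogen synthesis, rose. Gys1, the glycogen synthase, went the other way. It ran from 3352 to 3806 normalized counts in Sham-Veh, from 1998.5 to 2837 in TAC-Veh and from 2982 to 3361 in TAC-THZ1. With THZ1 in TAC the 2 that fell were Ugp2 (-0.32) and Ppp1r3c (-0.55). In the side branches of glycolysis 2 of 10 genes rose (20%, near the share of all genes) and 4 fell (40%) with TAC, and 3 rose (30%) with THZ1 in TAC. Sord, which makes fructose from sorbitol, had log2 fold changes of -1.03 and 0.86, and Pgd, of the pentose phosphate pathway, of 0.36 and -0.17, the last not called. The other that rose with TAC was G6pdx (0.61), the first enzyme of that pathway, and the others that fell were Akr1b3 (-0.33), Rpia (-0.34) and Gfpt1 (-0.25), while Rpia (0.51) and Akr1b3 (0.29) rose with THZ1 in TAC. No gene of these 7 lists was called in sham hearts given THZ1.

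Several calls in these lists did not hold with each library left out in turn. Those of Tpi1, Rpia and Gfpt1 with TAC, and of Mlx with THZ1 in TAC, were lost in most fits that left out a library of the groups compared. With TAC, among the genes named, the call was lost in at least 1 fit that left out a library for Tpi1 (adjusted p by limma up to 0.133, without TAC-Veh replicate 1), Slc2a6 (0.0610, without Sham-Veh replicate 4), Pfkfb2 (0.0821, Sham-Veh 3), Pfkfb4 (0.0887, Sham-Veh 2), Slc16a1 (0.0597, TAC-Veh 2), Brp44 (0.0643, TAC-Veh 2), Rpia (0.134, TAC-Veh 1) and Gfpt1 (0.131, TAC-Veh 1), and Gpi1 fell from 0.23 to 0.15 without TAC-Veh replicate 1. With THZ1 in TAC it was lost, besides Bpgm, Slc16a3 and Pdk4, for Pgam2 (0.0573, TAC-Veh 2), Slc2a8 (0.0806, TAC-Veh 2), Mlx (0.109, TAC-Veh 4), Slc16a1 (0.0654, TAC-Veh 2), Brp44l (0.107, TAC-Veh 2) and Akr1b3 (0.0809, TAC-Veh 2). Among the genes named, calls were gained with TAC for Hif1a without TAC-Veh replicate 3 (0.41, adjusted p = 0.00187 by limma), Pgam2 without replicate 2 (0.25, 0.0124), Pkm2 without replicate 1 (-0.19, 0.0236), Pfkl without replicate 4 (0.26, 0.0358) and Slc2a8 without Sham-Veh replicate 1 (-0.24, 0.0302). With THZ1 in TAC they were gained for Aldoa (0.23, 0.0288), Tpi1 (0.26, 0.0176) and Gfpt1 (-0.25, 0.0306) without TAC-Veh replicate 1, Prkaa2 (0.28, 0.00196) and Pfkfb2 (0.44, 0.0190) without replicate 4, and Pgd without TAC-THZ1 replicate 3 (-0.25, 0.0143). Pdk3 gained a call without TAC-THZ1 replicate 1 (-0.73, 0.0263) or TAC-Veh replicate 3 (-0.68, 0.0333) or 4 (-0.69, 0.0358). Txnip, a regulator not called with THZ1 in TAC (-0.64, 0.0747), was called without TAC-Veh replicate 2 (-0.89, 0.0144).

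**Figure D4:**
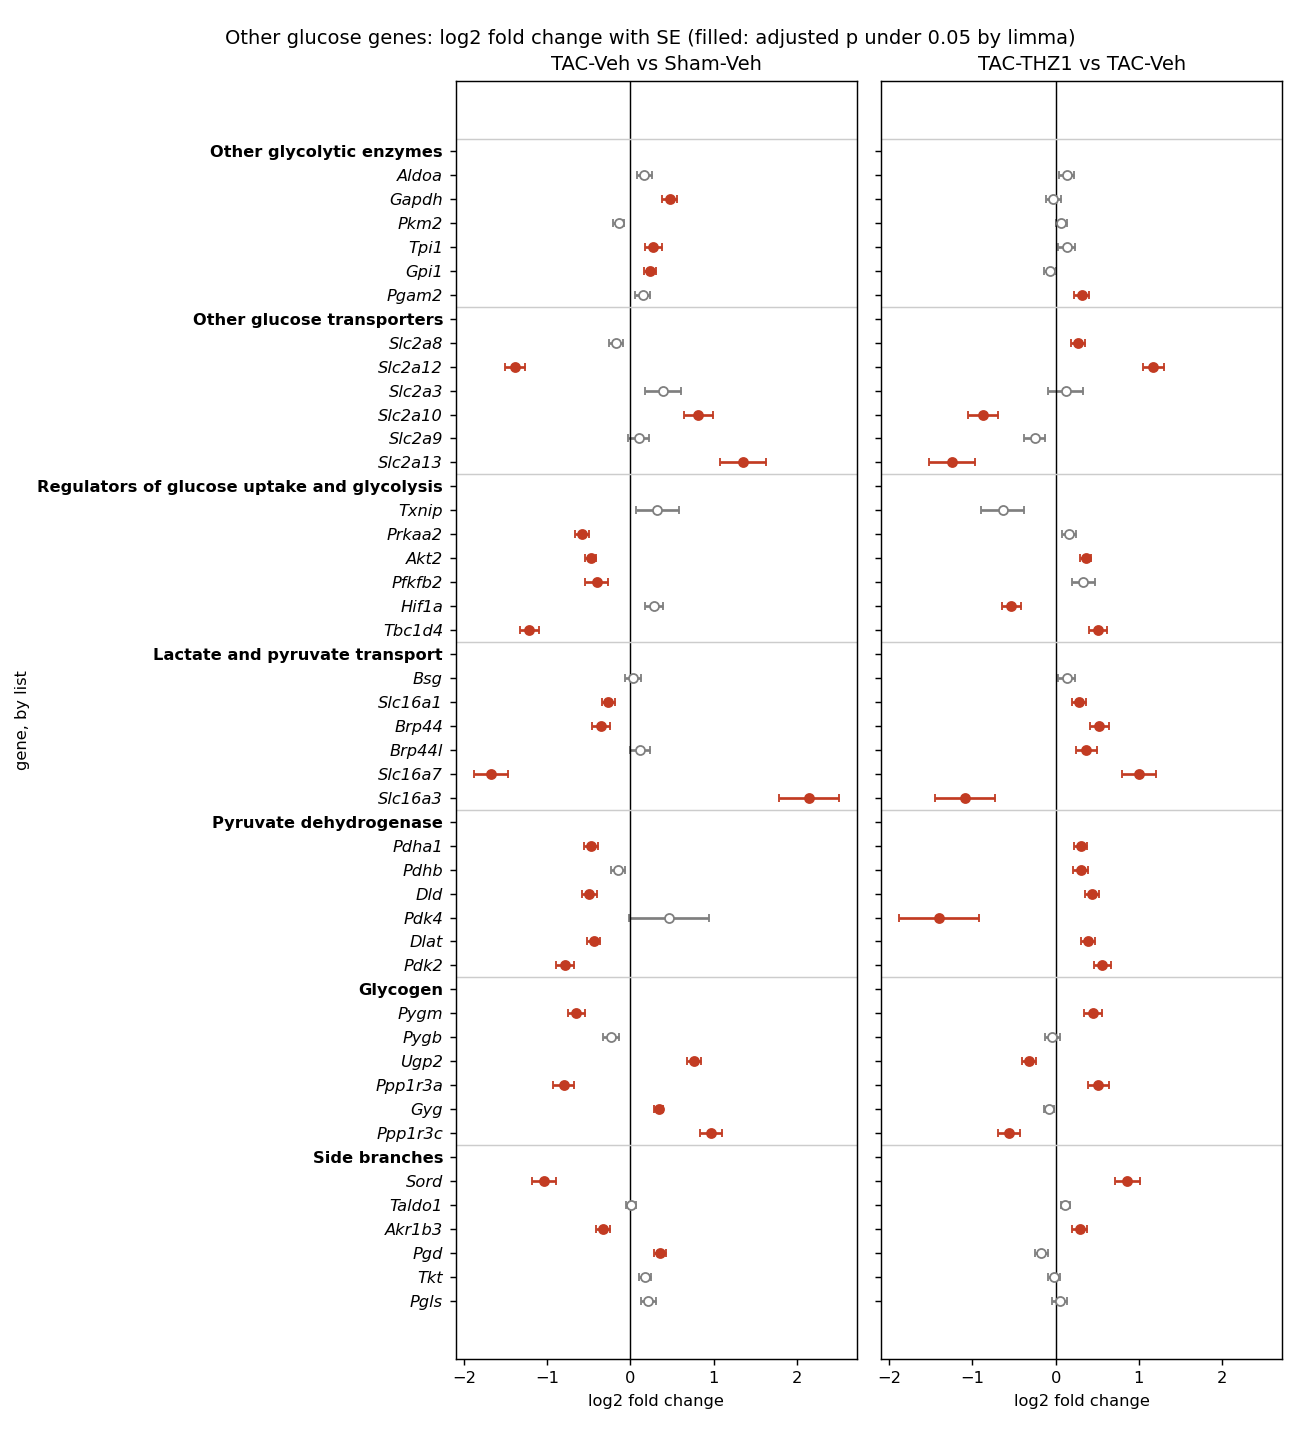
The log2 fold change with its SE for the genes named from 7 lists of glucose metabolism, at most 6 with the highest mean per list, with filled points for an adjusted p under 0.05 by limma. With TAC the named pyruvate dehydrogenase genes Pdha1, Dld, Dlat and Pdk2 lie left of 0 and Slc16a3 lies farthest right at 2.14, and with THZ1 in TAC Slc2a12 lies farthest right at 1.17 and Pdk4 farthest left at -1.40, which was -0.84 without TAC-Veh replicate 1.

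Genes whose pattern over the 16 libraries was most like that of each member were sought among 10317 tested genes whose mean reached 100 normalized counts, by Pearson's r of log2 values. All libraries share the 4 groups, so these values describe the group differences too. Pfkp was closest to Anxa1 (0.99), which encodes annexin A1, and Tmem43 (0.98), and Slc2a1 to Lgals3 (0.95), which encodes galectin 3, and Atp6ap1 (0.95). Pfkm was closest to Cs (0.99), the citrate synthase of mitochondria, and Adhfe1 (0.99), Ldhb to Eci1 and Etfa (both 0.99), enzymes of fatty acid oxidation, and Eno3 to Slc25a3 (0.98), the mitochondrial phosphate carrier, and Mrps35 (0.97). Slc2a4 was closest to Gpt (0.99), an alanine transaminase, and Gstk1 (0.99), Hk2 to Gab1 and Ccdc47 (both 0.96), Eno1 to Wbp5 and Igfbp3 (both 0.96), and Ldha to Dstn (0.96) and Tceal8 (0.95). Hk1 had the weakest partners, Vwf and Ptpn1 (both 0.87), and Vwf, which encodes von Willebrand factor, is made by endothelial cells.

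Among the members themselves, r over the 16 libraries was 0.97 for Slc2a4 with Ldhb, 0.97 for Pfkm with Ldhb and 0.94 for Slc2a4 with Pfkm. Pfkp had 0.91 with Eno1 and 0.88 with Slc2a1, and -0.94 with Pfkm. Hk1 stayed between -0.34 and 0.51 with every other member. Eno1, Ldha and Gapdh have processed copies elsewhere in the mouse genome, so reads that align in more than 1 place may be missing from their counts.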

How the data were processed

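RNA from mouse ventricle pieces was sequenced in 16 stranded mRNA libraries, 4 per group, with groups taken from the labels. The authors aligned reads to mm9 with TopHat2 2.1.1, counted reads per GENCODE gene on the reverse strand with HTSeq, and divided the counts by DESeq2 size factors estimated over all mouse samples. The deposited signal is thus a normalized count. Dividing by each library's smallest step gave whole reads for 100% of values within a tolerance of 0.001. All 22372 gene identifiers matched GENCODE on NCBIM37, from which positions and exon lengths were taken. Recovered reads were 21.4 to 35.8 M (mega) per library.

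Values were tested as log2(normalized count + 1) with limma 3.58.1 under R 4.3.3. This scale understates changes of low genes. The fit had 1 mean per group over 16 libraries, a trend of variance on mean and Benjamini-Hochberg adjustment over 13331 genes in each of 5 contrasts. Genes were called at an adjusted p under 0.05. The labels do not say that libraries come from separate animals, so p-values measure the spread between libraries. Members and lists were chosen with earlier results of these data known. In all, 2 genes of the lists were left out of their counts and are not reported here. Of each list, at most 6 genes with the highest mean were named, and others after their values were seen. Alternatives covered pseudocount, filter, scaling, robust and weighted fits, a replicate block, thresholds, leaving out libraries, and edgeR 4.0.16 and DESeq2 1.42.0 on the recovered reads. The fits were tested on simulated data. Python 3.11.15, pandas 2.3.3 and Matplotlib 3.10.9 were used. No batch or date was given in the labels.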

Additional observations from a re-analysis of the deposited data

Results flagged for a closer look

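The effect of THZ1 was called different between constricted and sham hearts, by a test of the difference itself, for Slc2a4 (0.61 on the log2 scale), Pfkm (0.46), Pfkp (-0.99), Eno3 (0.62) and Ldhb (0.49). Of 30 alternative settings, the call of Slc2a4 held in all. It was lost in 12 for Pfkm, 3 for Pfkp, 18 for Eno3 and 16 for Ldhb. Of 40 groups of 4 libraries examined, 1 for each gene and group, 2 held a library apart from the other 3. Slc2a4 was lowest in Sham-Veh replicate 1, at 8777 normalized counts against 9753 to 9926 in the others of that group. Hk2 was highest in TAC-Veh replicate 4, at 6847 normalized counts against 5609 to 5668. Chance alone sets a library apart in about 1 of 20 such groups.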

How the results depend on the processing

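The calls with TAC of Slc2a1, Slc2a4, Hk2, Pfkm, Pfkp, Eno3 and Ldhb, and with THZ1 in TAC of Slc2a4, Pfkm, Pfkp, Eno3 and Ldhb, kept their direction and an adjusted p under 0.05 in every other fit run, while the study's fold thresholds left 1 member higher and 0 lower with TAC, and 0 higher and 1 lower with THZ1 in TAC. For THZ1 in TAC, 1 member was called lower at an adjusted p under 0.01, with array weights, with only the groups compared and without TAC-Veh replicates 1 and 2, an alternative chosen after seeing the data, against 2 in the main test, and 1 to 2 with each library left out. For the difference of THZ1 effects, 4 higher and 1 lower became 1 and 0 at an adjusted p under 0.01 and without TAC-Veh replicates 1 and 2, and the 4 higher became 2 by edgeR and 1 without a filter on low values. With each library left out it was 1 to 4 higher and 0 to 2 lower. In TAC-THZ1 against Sham-THZ1, 1 higher became 0 at an adjusted p under 0.01 and 2 with array weights, DESeq2, only the groups compared, quantile normalization or upper quartile scaling (0 to 2 with each library left out), and 1 lower became 2 with array weights or only the groups compared (1 to 2).

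Directions of uncalled values turned in few settings. With THZ1 in sham hearts, Pfkm was -0.022 under quantile normalization, Slc2a1 ran from -0.052 to 0.10 and Hk2 from -0.077 to 0.028 with each library left out. In TAC-THZ1 against Sham-THZ1, Eno3 ran from -0.041 to 0.082 and without TAC-THZ1 replicate 3 was -0.02, and Ldha ran from -0.0068 to 0.13. With THZ1 in TAC, Ldha ran from -0.19 to 0.047, and without TAC-Veh replicates 1 and 2 Eno1 was 0.061 and Ldha 0.13, with differences of THZ1 effects of 0.11 and 0.019. The cause was not tested.

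Replicate numbers are not said to pair libraries, and deviations of same-numbered libraries had a median correlation of 0.02 (-0.43 to 0.16, over 0.1 in 2 of 24 pairs). With the replicate number as a block, the difference of THZ1 effects had 1 member called higher, Slc2a4, and Pfkm (adjusted p = 0.0528 by limma), Eno3 (0.0597) and Ldhb (0.0784) were not called. The block changed no other call.

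With 4 libraries per group, uncalled members are not shown to be unchanged. The lowest value of any member in any library was 343 normalized counts.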
